A study of Mus musculus with 8 samples.

Results

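The Tmem108 locus on mouse chromosome 9 was described here by 38 open-chromatin regions out of the 160978 in the authors' deposited comparison of leukemic with non-leukemic marrow progenitors. A region was taken when Tmem108 was the gene whose annotated extent lay nearest to the region's centre, at no more than 100 kb. Of the 38 regions, 35 had their centre inside the gene and 3 lay upstream of it. The gene had been selected on the number of its regions called more accessible in this same comparison, so the calls and fold changes below describe the locus and test nothing.

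The libraries were made by ATAC-seq, in which a transposase inserts sequencing adapters into open chromatin. They came from mouse bone marrow cells sorted as positive for cKit and negative for lymphoid and erythroid markers, a fraction that holds stem and progenitor cells. All 4 AML libraries carried 1 copy of a URE deletion, which removes the upstream enhancer of Spi1, the gene of the transcription factor PU.1. Of these, 2 were labelled URE-delta/+;Tet2+/- and 2 URE-delta/+;Tet2-/-. The 4 normal libraries were 1 each of URE+/+;Tet2+/+, URE-delta/+;Tet2+/+, URE+/+;Tet2+/- and URE+/+;Tet2-/-. Controls were age-matched according to the series' design text, and the sources used here give no age, pooling of animals or promoter behind an allele. No normal library carried both alleles, so the disease and the joint genotype cannot be told apart. The sources used here do not say which libraries the authors compared under the name of low PU.1. The lanes recorded for the AML libraries were 6 and 7. The normal wild type library was on lane 6, the URE heterozygous one on 7, and the Tet2 heterozygous and Tet2 knockout ones on 8. Group and lane were thus partly joined, and an effect of lane was not tested. No values per library were used, so no spread between mice, standard error or interval can be set on any value, and the depth per library is unknown.

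Tmem108 encodes a membrane protein, also called retrolinkin, which is known mainly from neurons. There it is found on endosomes, where it links cargo to transport along the axon and takes part in signalling by the neurotrophin receptor TrkB after it has been taken up. Open chromatin at the start of a gene marks a promoter that can be used, and open regions inside or around a gene often mark enhancers. Accessibility by itself is not expression, and no RNA was measured in these files.

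Tmem108 (gene 81907) runs from 103482936 to 103761900 on chromosome 9 of GRCm38.p6, 279.0 kb, and is read from the minus strand, so the higher coordinates are its 5′ end. RefSeq's promoter table lists 2 starts for it, 69.0 kb apart. The main start at 103761837 lay under the most abundant region of the locus, and the second start, at 103692807, had no region within 2.1 kb. The sequences upstream of both starts are shown because they differ in composition as well as in accessibility. The first is the stretch upstream of every annotated Tmem108 transcript, chr9:103761901-103762087, of which 182 of 187 bases lay in the region at the promoter. The second is chr9:103692808-103693057, of which no base lay in a region. Both are written 5′ to 3′ on the minus strand from RefSeq's GRCm38.p6, with capitals for the letters GGAA (the core bound by ETS factors such as PU.1), CCAAT and CACGTG on either strand.
Main start: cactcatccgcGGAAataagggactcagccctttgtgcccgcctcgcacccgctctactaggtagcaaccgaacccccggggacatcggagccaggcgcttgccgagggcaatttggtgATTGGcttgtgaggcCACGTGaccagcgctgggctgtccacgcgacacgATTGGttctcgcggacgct
Second start: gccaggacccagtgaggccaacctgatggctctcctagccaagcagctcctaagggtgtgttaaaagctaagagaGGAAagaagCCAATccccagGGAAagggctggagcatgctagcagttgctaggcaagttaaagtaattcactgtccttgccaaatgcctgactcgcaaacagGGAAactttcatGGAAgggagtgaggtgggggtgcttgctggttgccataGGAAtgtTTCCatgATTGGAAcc

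Over the 300 bases that RefSeq's table gives per start (250 before and 50 after), the main promoter was 70.3% G or C and held 39 CG dinucleotides. The second promoter was 52.7% G or C and held 2. The median over 32851 promoters was 52.7% and 7 CG dinucleotides, so the main start was CG-rich and the second was not. GGAA occurred once in the main promoter, 239 bases before the start, and 7 times in the second promoter, and 96.0% of all promoters hold it on some strand. CCAAT occurred at 2 places in each, against 37.4% of all promoters with a match, and the E-box CACGTG only in the main promoter, 116 bases before the start, against 7.2% of all promoters. The GC box GGGCGG occurred once in the main promoter (35.7% of all promoters) and TGTGGT, the RUNX core, once in the second (16.8%). GATA and the AP-1 letters TGACTCA occurred in neither, against 57.9% and 5.2% of all promoters. The motifs were searched on both strands, CCAAT and GGAA overlap at 1 place in the second promoter, and a match of letters is no measured binding site.

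Accessibility was higher in leukemic cells at 7 of the 38 Tmem108 regions and lower at 0, at the authors' threshold of an adjusted p under 0.001. Over all 160978 regions 1.24% were called more accessible and 1.22% less accessible, and the 7 regions are 18.4% of the locus. The excess is what led to the choice of this gene, so nothing is read from it. The authors' table title names csaw, a window-based tool for differential accessibility, as the source of the calls. At an adjusted p under 0.05, 13 of the 38 regions were more accessible and 0 less accessible, where 7.98% and 9.21% of all regions were. At an adjusted p under 0.0001, 4 were more accessible, against 0.387% of all regions. At an unadjusted p under 0.05 the numbers were 15 more and 1 less accessible, where 15.0% and 16.3% of all regions were. The median log2 fold change of the 38 regions was 0.58, with quartiles of 0.17 and 1.63, against a median of 0.02 over all regions. The sign was positive at 30 of the 38.

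**Figure D1:**
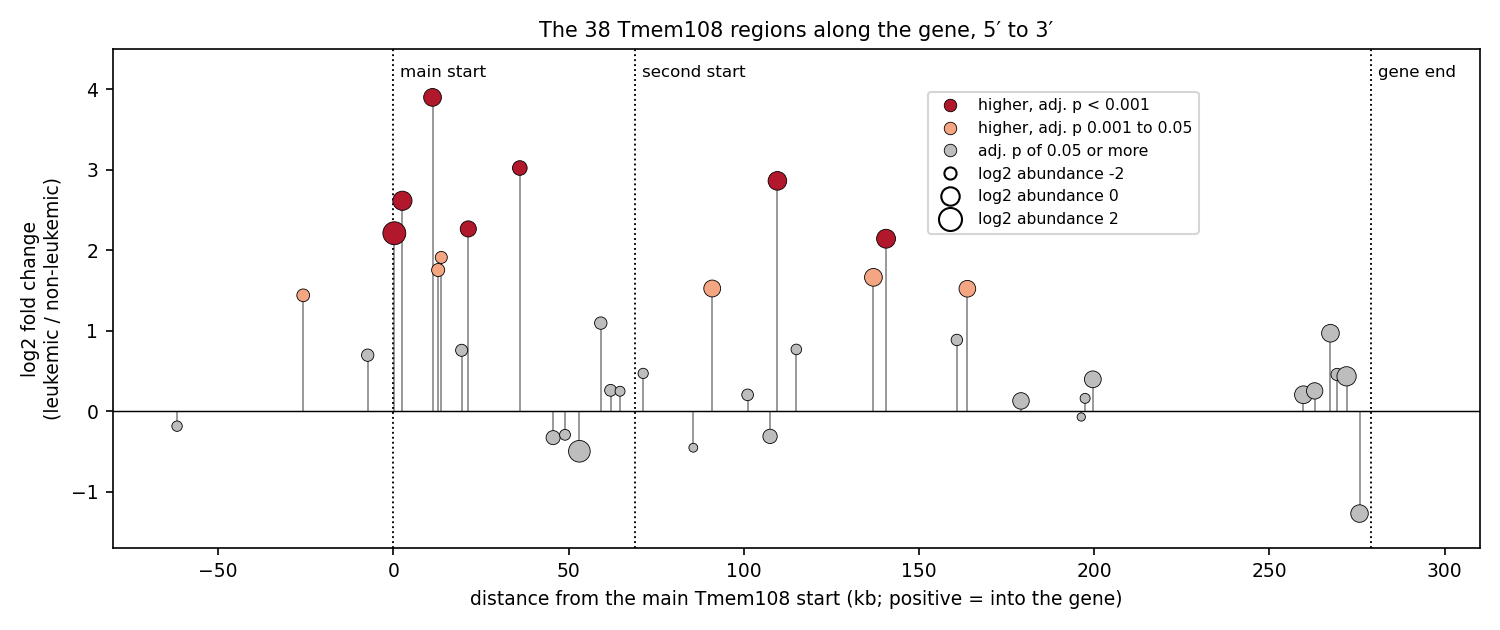
Log2 fold change (leukemic over non-leukemic, vertical axis) of the 38 Tmem108 regions by the distance of their centre from the main start in kb (horizontal axis, positive into the gene). Each point is 1 region, its area grows with the authors' log2 average abundance, and dark red marks the 7 regions with an adjusted p under 0.001, of which 5 lie within the first 40 kb of the gene.

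The promoter region at the main start gained accessibility together with its close surroundings. At 103761088 to 103762082, over that start, the log2 fold change was 2.21 (adjusted p = 6.61e-05) per the authors' deposited table, 4.63-fold higher in leukemic cells. Its log2 average abundance, the authors' measure of read level over libraries, was 1.95, above 92.6% of all regions. Among the 12991 regions that overlap a RefSeq promoter, 0.908% were called more accessible and the median log2 fold change was 0.19. The Tmem108 promoter stood at place 69 from the top of these by fold change. Called less accessible were 1.96% of these promoter regions.

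The 6 other gains lay inside the gene and away from its start. Going 5′ to 3′, the region at 103758934 to 103759565, 2.6 kb into the gene, stood at 2.62 on the log2 scale (adjusted p = 2.62e-05) per the authors' deposited table. At 103750448 to 103750778, 11.2 kb in, accessibility reached 3.90 (adjusted p = 1.76e-05) per the authors' deposited table, 14.9-fold higher. It was the highest of the locus and place 30 from the top among all 160978 regions. At 103740080 to 103740792, 21.4 kb in, the authors' deposited table gives 2.27 (adjusted p = 3.45e-04). The region at 103725596 to 103725793, 36.1 kb in, had 3.02 (adjusted p = 1.06e-04) per the authors' deposited table. It lies inside the long non-coding RNA gene Gm46129 as well, so its reads cannot be given to 1 of the 2 genes, and it was the least abundant of the 7, at -1.29.

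Farther into the gene, 2 more gains stood apart from this group. The region at 103651967 to 103652506, 109.6 kb from the main start, had 2.86 (adjusted p = 2.31e-05) per the authors' deposited table. The last gain, at 103620346 to 103622157 and 140.6 kb from the start, was the widest region of the locus at 1811 bp and had 2.14 (adjusted p = 8.97e-04) per the authors' deposited table. That region lies just inside the threshold of 0.001. Just outside it came the region at 103624686 to 103624978, which lies next to it, with 1.66 (adjusted p = 0.00372) per the authors' deposited table. Whether any of these regions is exonic or intronic was not analysed here, since the gene tables used give extents and starts without exons.

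The first 40 kb of the gene held 8 regions, and all 8 were positive, with 5 gains and a median log2 fold change of 2.24. The 3 regions of this stretch that were not called are thin, with log2 abundances from -2.03 to -1.75. Of these, the neighbouring regions at 103748951 and 103748050 stood at 1.75 (adjusted p = 0.0113) and 1.91 (adjusted p = 0.00644) per the authors' deposited table, and the region at 103742182 at 0.76. Upstream of the gene, the region at 103787447, 25.6 kb from the gene, had 1.44 (adjusted p = 0.0289) per the authors' deposited table. The 2 other upstream regions, 7.3 and 61.7 kb from the gene, had 0.70 and -0.19 there and did not pass 0.05.

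The stretch around the second start held no gain. From 50 to 100 kb into the gene, the 7 regions had 0 gains and a median of 0.26. Over all regions 1.24% were called more accessible, and 0.225% of those with a log2 abundance under -1. Nothing is therefore read from a 0 among so few regions, here or farther into the gene. The second most abundant region of the locus, at 103708331 to 103709181 with an abundance of 1.36, lies 53.1 kb from the main start and stood at -0.50 (adjusted p = 0.373) per the authors' deposited table. Both regions next to the second start, at 103690406 and 103696999, had 0.47 and 0.25 per the authors' deposited table at abundances of -2.44 and -2.51. The region at 103670587, 91.0 kb in, stood higher at 1.52 (adjusted p = 0.00521) per the authors' deposited table. From 100 to 150 kb, 2 of 6 regions were gains, with a median of 1.22, and from 150 to 200 kb 0 of 6 were, with a median of 0.28.

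The 3′ end of the gene held positive values of up to 0.97 and then 1 negative value, none with an adjusted p under 0.05. A stretch of 60.1 kb without any region separates the regions at 103562107 and 103501996. The 6 regions beyond it lie in the overlapping long non-coding RNA gene Gm16252 as well. Of these, 5 lay between 0.20 and 0.97 per the authors' deposited table, the highest with an adjusted p of 0.0595. The last one, at 103485576 to 103486689 over a start of Gm16252, stood at -1.27 (adjusted p = 0.0606) per the authors' deposited table, the lowest value of the locus.

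Split at its midpoint, the gene had 6 gains among 22 regions on the side of the start and 1 among 13 at the end. The medians were 0.93 and 0.40, and 17 of the 22 and 11 of the 13 values were positive. The 1 gain on the end side is the region 140.6 kb from the start, which lies next to the midpoint. Over the 35 regions inside the gene, the fold change had a Spearman's rank correlation of -0.40 with distance from the main start and of 0.36 with abundance. These are descriptions over regions that share the same libraries. Abundance and distance themselves had one of 0.03. Of the 35 regions, 13 also lie inside 1 of the long non-coding RNA genes Gm16252, 4932413F04Rik, Gm32682 and Gm46129. They hold 1 of the 7 gains and have a median of 0.40.

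Abundance bears on which regions can be called. Of all regions with a log2 abundance of at least -1, 2.44% were called more accessible, and of those below it 0.225%. At Tmem108, 6 of 17 regions above that level were gains and 1 of 21 below it. The median log2 fold change was 1.52 in the first group and 0.46 in the second, with 15 positive values in each. Set against all regions of like abundance, in classes 0.5 wide on the log2 scale, 10 of the 38 regions lay above the 95th percentile of their class. The 3 of these that were not called are those at 103787447, 103748951 and 103748050, each at an abundance under -1.7. They stood at 1.44, 1.75 and 1.91, as given above.

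**Figure D2:**
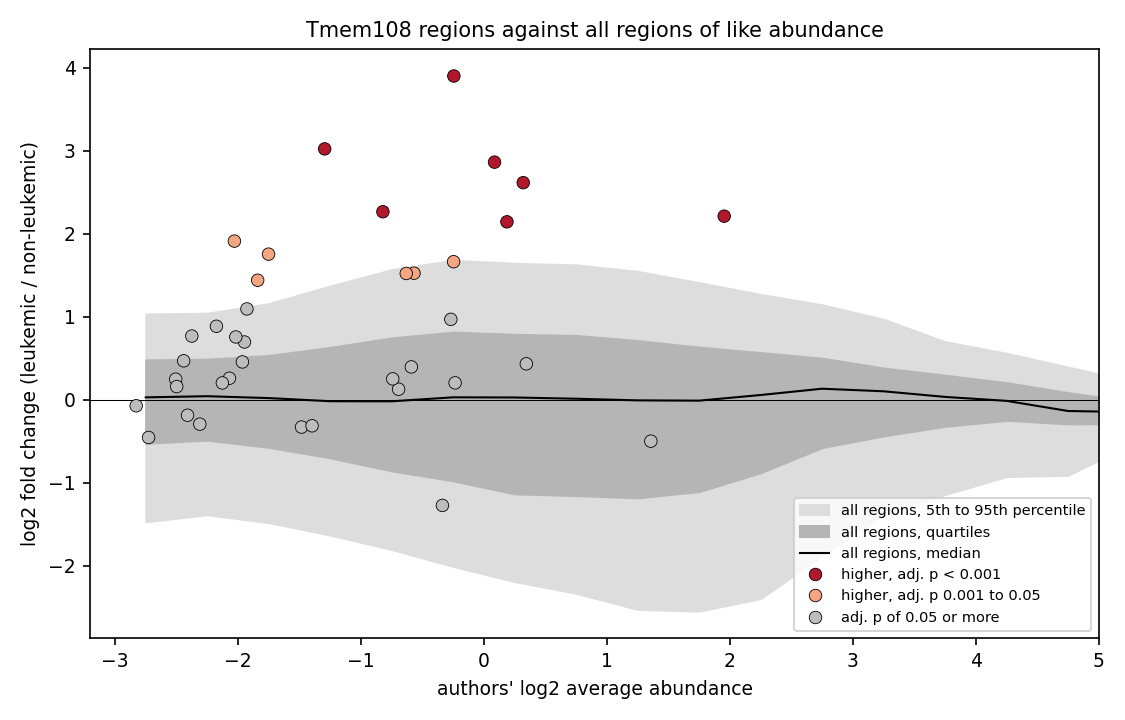
Log2 fold change (vertical axis) against the authors' log2 average abundance (horizontal axis) for the 38 Tmem108 regions (points, coloured by adjusted p), over bands that show the quartiles and the 5th and 95th percentiles of all regions in abundance classes 0.5 wide. All 7 called regions lie above the 95th percentile band, between abundances of -1.29 and 1.95, a place that the call itself largely fixes.

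No gain was called among the regions of neighbouring genes that were not shared with Tmem108. The gain inside Gm46129 is shared and was counted for Tmem108. Within 500 kb of the gene extent, 84 regions were given to other genes and not to Tmem108. Of these 0 were called more and 0 less accessible at 0.001, where 1.24% and 1.22% of all regions were. Shares that small leave few calls to be found in 84 regions, so nothing is read from the 0. At an adjusted p under 0.05 the numbers were 9 and 7 (10.7% and 8.33%), against 7.98% and 9.21% of all regions. At an unadjusted p under 0.05 the numbers were 13 and 15 (15.5% and 17.9%), near the 15.0% and 16.3% over all regions. Their median log2 fold change was -0.01, with 42 positive and 42 negative values. The nearest call beyond Tmem108 on the 3′ side was a gain at Ryk, a receptor for Wnt ligands, 640.2 kb away with 2.49 (adjusted p = 4.41e-04) per the authors' deposited table. On the 5′ side the nearest call was a loss at Cpne4, 1211.0 kb away with -3.81 (adjusted p = 7.06e-04) per the authors' deposited table. The nearest gain on that side, at Alas1, was 2485.7 kb away. Chromosome 9 as a whole had 1.32% of its 8405 regions called more accessible and a median of 0.08, close to the values over all regions.

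**Figure D3:**
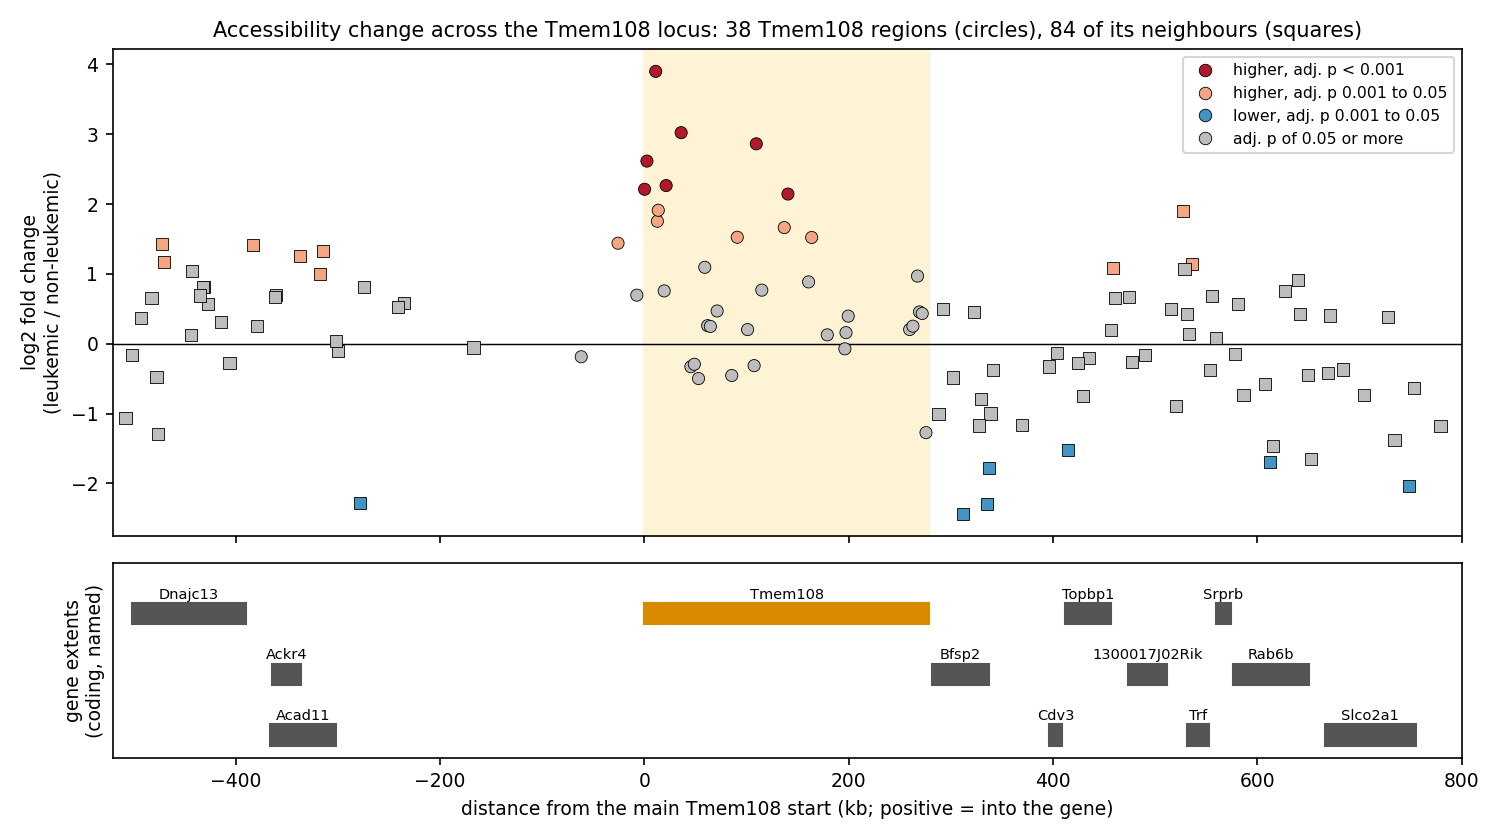
Log2 fold change (vertical axis) of the 38 Tmem108 regions (circles) and the 84 regions of neighbouring genes (squares) by distance from the main Tmem108 start in kb (horizontal axis, positive into the gene), coloured by adjusted p. The lower strip shows the extents of the protein-coding genes named in the text, and all 7 dark red points lie inside the shaded Tmem108 extent.

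The flanks differed from each other in their medians. On the 3′ side, the median of 54 regions was -0.35, with 20 positive values. There the lens filament gene Bfsp2, whose extent begins 2.5 kb from that of Tmem108, had 8 regions with a median of -0.90. Its listed start, which lies inside the extent and at neither end of it, is covered by the region at 103449049 to 103450033. This region stood at -2.43 (adjusted p = 0.00211) per the authors' deposited table, the lowest of the 84. That region is shared with the long non-coding RNA gene 5830418P13Rik. Trf, the gene of transferrin, went the other way, with 6 positive values among 7 regions. Its region at 103234122 to 103234908 had 1.90 (adjusted p = 0.00181) per the authors' deposited table, the highest of the 84.

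Further genes on the 3′ side had 0 calls at 0.001. Topbp1, which acts in the DNA damage checkpoint, had 7 regions from -1.52 to 1.08, of which 1 in each direction passed 0.05. Rab6b, a small GTPase of vesicle traffic, had 10 regions from -1.69 to 0.91, and Slco2a1, the prostaglandin transporter gene, 8 from -2.03 to 0.40, with 1 negative region each under 0.05. The 1 region of Srprb, a subunit of the signal recognition particle receptor, stood at 0.08, and the 3 regions of Cdv3 ran from -1.17 to -0.13. The 5 regions of 1300017J02Rik ran from -0.90 to 0.66. The long non-coding RNA genes Gm31434, Gm46128 and Gm51658 held 1, 2 and 2 regions, and none passed 0.05.

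On the 5′ side, 30 regions had a median of 0.57, with 22 positive values. At an adjusted p under 0.05, 6 were above 0 and 1 below it. The 1 below stood at -2.28 (adjusted p = 0.0252) per the authors' deposited table. Acad11, an acyl-CoA dehydrogenase gene, had 5 regions, between 0.67 and 1.33, of which 3 passed 0.05. The chemokine-scavenging receptor gene Ackr4 lies within it, and its 3 regions are among the 5. Dnajc13, an endosomal chaperone gene, had 18 regions from -1.30 to 1.42 with 3 under 0.05, of which 6 lie in the long non-coding RNA gene Gm46130 as well. The single regions of Gm29154 and Gm33054 had -0.05 and 0.58. No positive value on this side reached the lowest of the 7 Tmem108 gains, 2.14.

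Start sites of neighbouring genes could be compared at well-covered promoters. The regions over the starts of Dnajc13, Acad11, Topbp1 and Srprb had abundances of 4.86, 3.58, 2.93 and 2.89, all above the 1.95 of the Tmem108 promoter. Their log2 fold changes were -0.16, 0.03, 0.19 and 0.08 per the authors' deposited table. The region over the start of Gm33054, whose centre lies outside that gene, had an abundance of 4.36. It stood higher, at 0.53 (adjusted p = 0.0574) per the authors' deposited table. The region over the starts of Cdv3 had -0.33 and that shared by Rab6b and Gm46128 had -0.45 there. The abundance was 2.19 for Cdv3 and 1.85 for Rab6b. The Tmem108 promoter was the only start in that table for these genes with a call at 0.001. The listed Bfsp2 start, inside that gene's extent, was the only other under 0.05. The start of Trf was not analysed here.

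**Figure D4:**
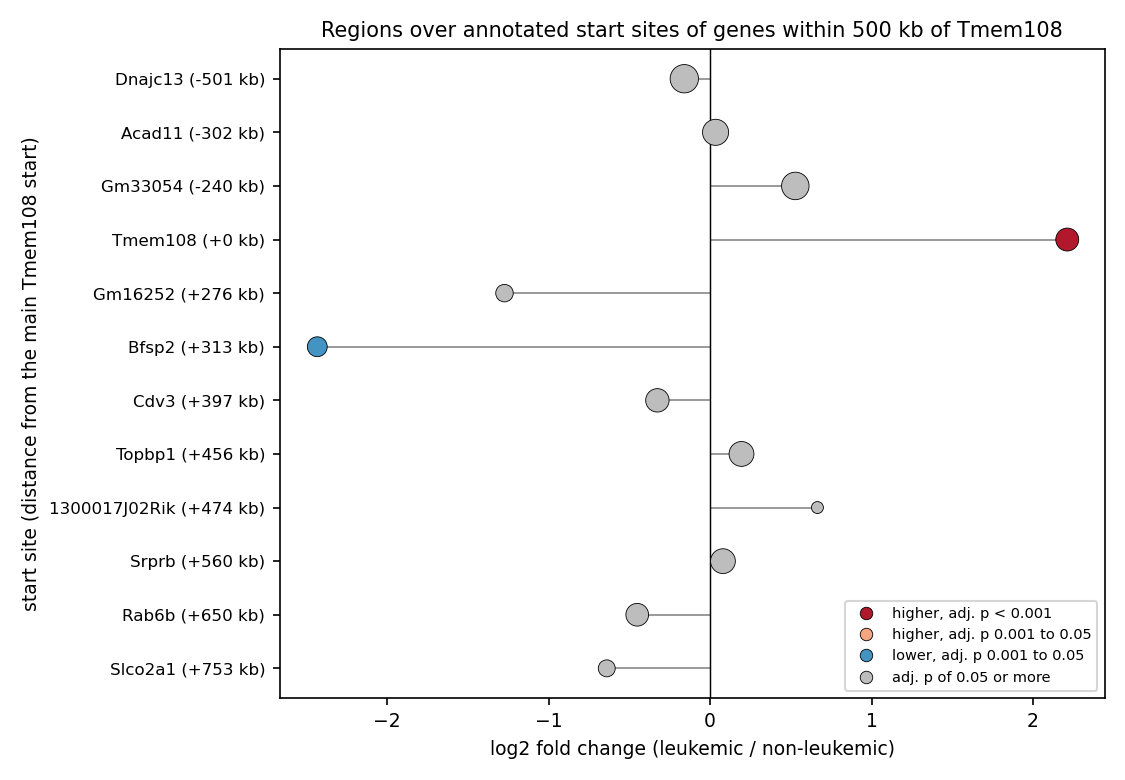
Log2 fold change (horizontal axis) of each region over an annotated start of Tmem108 or of a gene within 500 kb (vertical axis, with the distance from the main Tmem108 start, positive into the gene), coloured by adjusted p, with point area by log2 average abundance. Tmem108 stands at 2.21, Bfsp2 at -2.43 and the other starts between -1.27 and 0.66.

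Genes of the processes in which the Tmem108 protein takes part, called partner genes below, were described for comparison. They were listed from background knowledge, and a direct link of each one to Tmem108 was not checked. The list holds 19 genes of axonal transport, TrkB signalling, endocytosis and the actin-regulating WAVE complex, and all 19 had regions, 198 in total. Of these 1 was called more and 2 less accessible, 0.505% and 1.01%, near the shares over all regions. The gain lay at Wasf2, a WAVE complex subunit that drives actin branching, with 2.56 (adjusted p = 3.80e-04) per the authors' deposited table at 1 of 11 regions. The losses lay at Dst, the cytoskeletal linker dystonin, with -2.03 (adjusted p = 9.35e-04) at 1 of 34 regions, and at the endophilin gene Sh3gl3, with -2.81 (adjusted p = 7.64e-04) at 1 of 15, per the authors' deposited table. The median over the list was -0.31. At an adjusted p under 0.05, 6 regions (3.03%) were more and 24 (12.1%) less accessible, where 7.98% and 9.21% of all regions were. Ntrk2, the gene of TrkB itself, had 8 regions with a median of 0.59 and 1 under 0.05, at 1.44 (adjusted p = 0.00843) per the authors' deposited table.

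Few genes had as many gains as Tmem108. The gene was selected on that count, so its place among the others follows from the choice and nothing is read from it. Of 32185 genes with at least 1 region, 1678 had a gain, and 10 had at least 5. Among 1324 genes with from 19 to 76 regions, 1039 had no gain, and 5, Tmem108 among them, had a share of gains of at least 18.4%. The others were Baz1a at 28.6%, Flt1 with 5 of 20 regions, Afap1 at 21.7% and Gng7 at 21.1%. The median log2 fold change of all regions of a gene was at or above that of Tmem108 in 59 of the 1324, Tmem108 included.

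The genes most like Tmem108 in the share of gains, with at least 1 gain and no loss, were Gng7, Afap1, Mcf2l, Gm46414 and Igl, in that order. Likeness was the difference in the percentage of regions called more accessible, 2.63 points for Gng7 and 3.42 for the last 3. Gng7 encodes a gamma subunit of G proteins and had 4 gains among 19 regions, between 1.94 and 2.66 per the authors' deposited table. Afap1, a protein that cross-links actin filaments, had 5 of 23, from 2.47 to 3.31 per the authors' deposited table. Mcf2l, a guanine nucleotide exchange factor, had 3 of 20, from 1.84 to 2.21 per the authors' deposited table. The long non-coding RNA gene Gm46414 and Igl, the immunoglobulin lambda locus, also had 3 of 20 each.

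**Figure D5:**
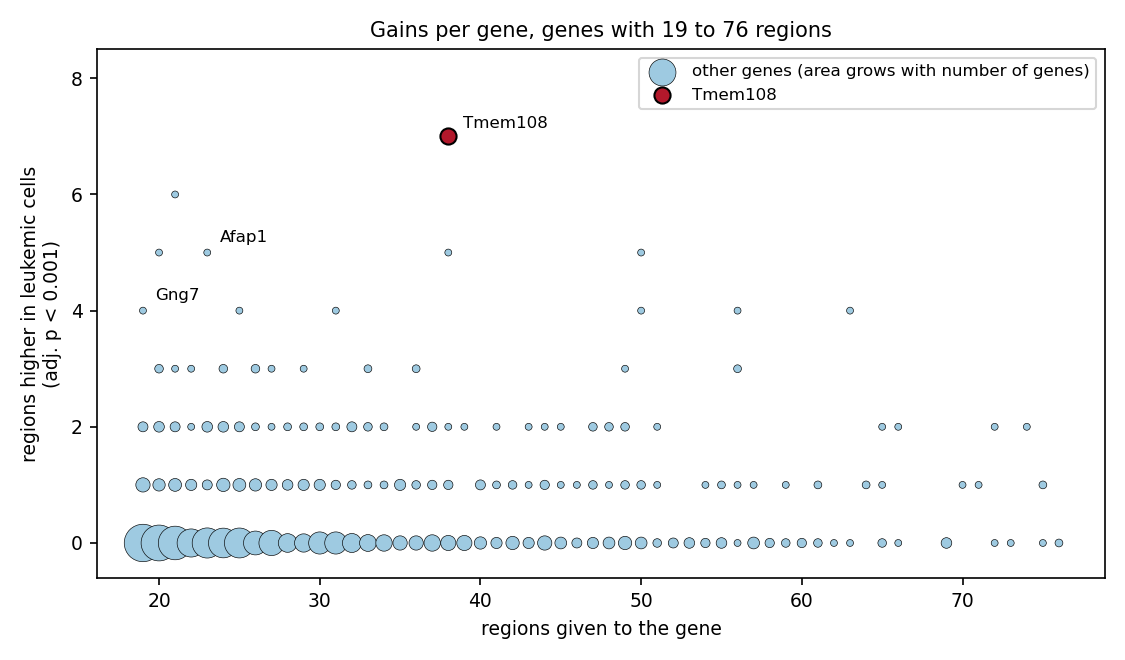
Number of regions called more accessible (vertical axis) against the number of regions given to the gene (horizontal axis) for the 1324 genes with 19 to 76 regions, where each point stands for all genes with those numbers and grows in area with how many there are. Tmem108, in red and selected on its gains, has 7 gains of 38 regions, the most of any gene shown. No gain was held by 1039 genes.

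For the samples as a whole, the abundance at gene ends was read for markers of the sorted cells, as a level over all libraries. The 5 progenitor markers Kit, Cd34, Myb, Gata2 and Mpo had regions with log2 abundances from 1.64 to 3.26. Of the lymphoid markers, Cd79a had the highest abundance at 1.41, and the 5 erythroid markers ranged from -2.61 at Alas2 to 4.11 at Klf1. Of 5 neuron markers, Rbfox3 had no region and the other 4 ranged from -0.04 to 1.84. Between the groups, the most abundant end region of Cd34 was called less accessible in leukemic cells, with -2.48 (adjusted p = 1.24e-04) per the authors' deposited table. That of the neuron marker Camk2a had 0.97 (adjusted p = 0.0447) per the authors' deposited table. The other 17 marker regions had an adjusted p of 0.05 or more. The lymphoid markers ranged from -1.02 at Cd79a to 0.73 at Ncr1 in log2 fold change, and the erythroid markers from -0.59 to 0.46. The share of each cell type in each library was not analysed here, and its part in the Tmem108 gains was not tested. In bulk samples, more cells of a type with open Tmem108 chromatin and more open chromatin per cell cannot be told apart. The Spi1 locus, where the URE was deleted, had 5 of 14 regions called less accessible, and Tet2 had 0 of 15 called. Over all regions 1.22% were called less and 1.24% more accessible, so nothing is read from the 0 at Tet2. The lowest Spi1 value, -7.30, was also the lowest of all regions. Whether the absence of the deleted DNA itself lowered the reads at Spi1 was not tested.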

How the data were processed

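Per the submitters' processing notes, ATAC-seq reads of 8 libraries were processed against GRCm38 (mm10), with Bowtie2 2.4.1, SAMtools 1.10.2 and Genrich 0.6 named. The title of the deposited table names csaw. The sources used here give neither its settings nor the normalization nor any shift of reads for the transposase. Per region, the authors deposited a log2 fold change, a log2 average abundance (a reading that rests on column position and range), a p-value and an adjusted p-value. The last equals a Benjamini-Hochberg adjustment over all regions to within 2.39e-15. The authors' deposited sets of 2002, 1961 and 19123 regions equal those under 0.001 with positive or negative sign, or over 0.9. Coordinates are those of the file, and no source used here says whether they begin at 0 or at 1.

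Nearest genes came from RefSeq's GRCm38.p6 extents, within 100 kb, and a centre inside several genes counted for each of them. The assignment was tested on simulated data. Named genes were Tmem108, the genes within 500 kb that had a region (some genes are not reported here), partner genes with a called region, and the 5 genes closest in share of gains. Python 3.11.15, pandas 2.3.3 and scipy 1.17.1 were used. The members and lists were chosen with earlier results of these data known. No test was run, since only 1 value per region was at hand. Alternatives changed the threshold, the assignment, the abundance minimum and the neighbour distance.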

Additional observations from a re-analysis of the deposited data

How the results depend on the processing

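The 7 gains and 0 losses at Tmem108 stood the same with protein-coding genes alone, with centres inside the gene and with any overlap, and were 6 and 0 with abundances of at least -1 or in regions inside no other gene, an alternative added after seeing the data. Under 0.0001 for the adjusted p there were 4 gains (0.387% of all regions), and a limit of 0.05 gave 13, 9 neighbour gains in place of 0, and 6 gains and 24 losses in partner genes in place of 1 and 2. With abundances of at least -1 the Tmem108 median rose from 0.58 to 1.52, and in its other alternatives it lay between 0.47 and 0.77. Genes within 1000 kb added 1 neighbour gain and turned their median from -0.01 to 0.26. The 0.0001 and 0.05 limits changed the threshold over the same regions, while the abundance minimum and the distance changed which regions entered. No paired analysis was possible because the files used hold 1 value per region and none per library, and for the same reason no library could be left out. Unknown depth limits every fold.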

Other observations

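The first 40 kb of Tmem108, with 5 gains among 8 consecutive regions, was set against every run of 8 consecutive regions in the comparison. The length of 8 and the limit of 5 gains were both taken from this stretch after its values were seen. Tmem108 was therefore listed by construction, and nothing is read from how few runs reached the limit. Of 160838 such runs, 28 held at least 5 gains, and they merged into 9 separate stretches. Tmem108 was 1 of them, over 36.5 kb. Others lay at Baz1a, a chromatin remodelling subunit gene, and at Trpm3, a cation channel gene. Further ones lay at Afap1, at Flt1, at Zcchc14 and, near no protein-coding gene that held the gains, on chromosomes 9 and 13. Zcchc14 had 7 gains among 12 regions over 82.8 kb, and Trpm3 had 6 among 11 over 153.2 kb. The 9 stretches held 0 losses. The median log2 fold change was 2.24 at Tmem108, and at the other 8 stretches it ran from 1.08 at Afap1 to 2.14 at Baz1a.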
